A study of Mus musculus with 12 samples.

Results

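Dntt, Flt3, Notch1, Ccr9, Cd52 and Lsp1 are genes associated with early lymphoid progenitors, and all 6 were lower in KSL cells of irradiated mice. Flt3, Notch1 and Ccr9 encode receptors and Dntt an enzyme, while Cd52 and Lsp1 encode a surface antigen and a cytoskeletal protein that other leukocytes carry as well. They were chosen by symbol from the authors' deposited table of probe sets with at least a 2-fold change and an unadjusted p under 0.05, so their direction and size between the groups are what chose them and are given as a description, with no test. They are 6 of the 325 genes that this table names singly, and 9 of the 22626 probe sets measured. KSL cells are the Kit-positive, Sca-1-positive, lineage-negative fraction of bone marrow, and were sorted here from C57Bl/6 mice raised until 10 weeks of age. The 6 arrays named 550 cGy are of mice given that dose from a cesium-137 irradiator, with isolation at day 14 per the series' design text, and the 6 arrays named 0 cGy are of mice that were not irradiated. The labels state neither whether each array is a separate mouse nor whether mice were pooled, so all spreads below are between these arrays and may be technical. Kit and Ly6a, the genes of both positive sorting markers, had no named probe set, so the sorted identity could not be checked with them.

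The KSL fraction holds long-term stem cells together with multipotent progenitors, and the multipotent progenitors that carry the most Flt3 on their surface are known for their lymphoid potential. These lymphoid-primed progenitors begin to transcribe lymphoid genes before they commit, and a few of them leave the marrow to seed the thymus. In RNA of a sorted fraction, fewer cells of such a type and less RNA per cell cannot be told apart.

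Replicates 1 to 3 stood apart from replicates 4 to 6 on the second principal component of all probe sets, which held 16.5% of the variance against 35.8% on the first. The non-irradiated sets were parted on the first component too. There replicates 1 to 3 lay at -51.5 to -41.0 and replicates 4 to 6 at -9.84 to 0.016, while the irradiated sets overlapped. The labels name no batch. Changes within each of these replicate sets are therefore given beside the pooled ones. Array medians lay between 6.936 and 7.001 log2 units in irradiated arrays and between 6.999 and 7.015 in non-irradiated arrays.

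RefSeq promoter sequence was at hand for 4 of the 6 genes: Flt3, Notch1, Ccr9 and Dntt. By their brightest probe sets, Flt3 and Notch1 followed each other most closely from array to array, and Dntt had the largest difference. The 250 bases before the start site are shown for these 3 genes. They are 5′ to 3′ on the gene's strand, from GRCm38.p6, with matches to the searched motifs in capitals: Flt3 at chr5:147400490-147400739 (minus strand), Notch1 at chr2:26503823-26504072 (minus strand) and Dntt at chr19:41029025-41029274 (plus strand).
Flt3: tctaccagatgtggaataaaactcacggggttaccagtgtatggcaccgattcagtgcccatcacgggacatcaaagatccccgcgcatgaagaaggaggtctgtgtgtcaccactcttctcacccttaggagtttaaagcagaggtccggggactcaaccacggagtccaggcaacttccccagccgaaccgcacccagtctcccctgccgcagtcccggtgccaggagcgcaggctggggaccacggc
Notch1: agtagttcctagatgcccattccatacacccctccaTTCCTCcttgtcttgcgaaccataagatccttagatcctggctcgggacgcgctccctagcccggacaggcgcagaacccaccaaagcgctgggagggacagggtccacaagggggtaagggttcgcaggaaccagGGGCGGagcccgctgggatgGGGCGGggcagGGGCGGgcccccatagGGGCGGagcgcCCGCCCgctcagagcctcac
Dntt: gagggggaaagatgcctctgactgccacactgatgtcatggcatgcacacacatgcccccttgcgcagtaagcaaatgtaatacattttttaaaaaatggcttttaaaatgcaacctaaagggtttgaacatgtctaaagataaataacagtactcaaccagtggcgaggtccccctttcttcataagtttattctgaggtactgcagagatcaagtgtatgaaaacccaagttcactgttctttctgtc

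Both strands of each window, which runs on for another 50 bases after the start site, were searched for 8 motifs. The TATA box was searched as TATAAA. The core shared by Ikaros and by RBPJ, the DNA-binding partner of Notch, was searched as TGGGAA. E boxes of E2A were searched as CAGCTG, which is its own reverse complement, or in a further form as CACCTG. RUNX sites were searched as TGTGGT, sites of PU.1 and other ETS factors as GAGGAA, GC boxes as GGGCGG, and the core of the cyclic AMP response element as TGACGT. No searched string contains another. Notch1 held 5 GC boxes, 4 on its own strand and 1 on the other, and 1 match to the PU.1 string on the other strand. Ccr9 held 1 match to the further E box form on the other strand, and the Flt3 and Dntt windows held none of the 8 letter strings. Of all 32851 promoter windows, 35.7% held the GC box, 28.3% the PU.1 string, 25.6% the Ikaros and RBPJ core, 20.2% the further E box form, 16.8% the RUNX string, 16.3% the first E box form, 13.6% the TATA box and 7.51% the cyclic AMP element core. The GC content of the 250 bases was 66.0% for Notch1, 59.2% for Flt3, 50.4% for Ccr9 and 41.6% for Dntt, against a median of 52.4% over all windows. The Dntt promoter is known as one that lacks a TATA box and starts at an initiator element.

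Each of the 9 probe sets had all 6 irradiated arrays below all 6 non-irradiated arrays, which held for 2.8% of all probe sets. At least 2-fold lower means were found for 1.27% of all probe sets. The median log2 change of the 9 probe sets was -1.27, against 0.0078 over all probe sets. Nothing is read from these shares or from this median, since the rule used this contrast. Members were named at the 2-fold threshold or above: Ccr9 was the nearest to it, at 2.08-fold lower, and the largest fall that missed it over all probe sets was 1.999-fold, in a probe set that carries no name here.

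**Figure D1:**
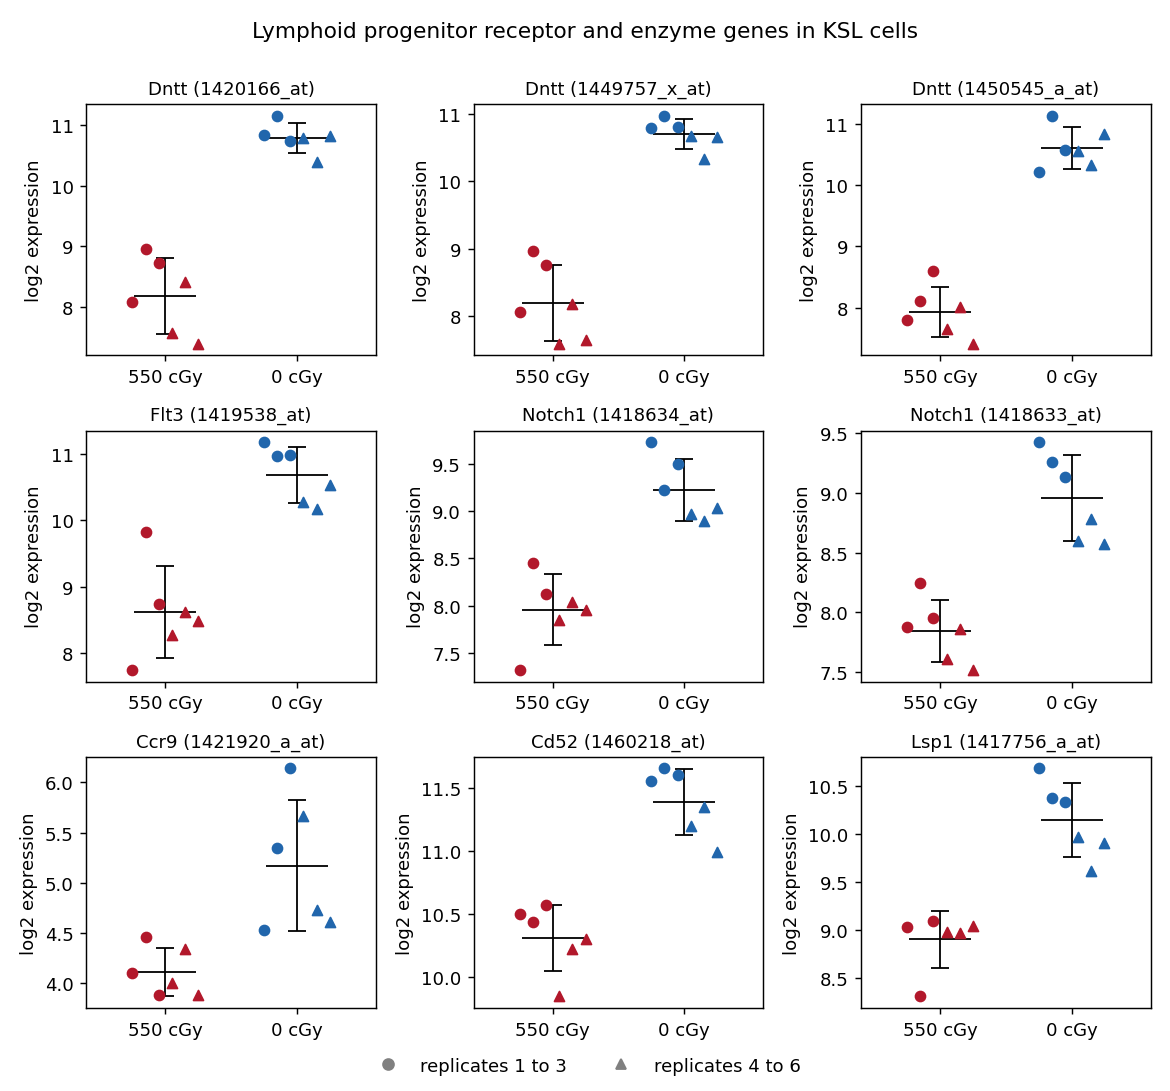
Log2 expression of the 9 probe sets in each array, 550 cGy on the left and 0 cGy on the right of each panel; circles are replicates 1 to 3, triangles replicates 4 to 6, and black lines the mean ± SD of 6 arrays. The groups do not overlap in any panel; the gap is 1.62 log2 units in the Dntt probe set 1450545_a_at and 0.065 in Ccr9.

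Among the receptors, Flt3 encodes the receptor tyrosine kinase for Flt3 ligand. Its probe set (1419538_at) read 7.75 at the lowest, 8.56 at the median and 9.83 at the highest in the 550 cGy arrays, against 10.16, 10.75 and 11.18 in the 0 cGy arrays (log2 expression). The irradiated arrays were far apart: replicate 2 was the highest at 9.83 and came within 0.33 log2 units of the lowest non-irradiated array, while replicate 1 was the lowest. The means were 8.62 ± 0.69 in irradiated and 10.68 ± 0.42 in non-irradiated cells (SD, n = 6 each), a log2 change of -2.07 (SE 0.29), or 4.19-fold lower with a 95% interval of 2.70 to 6.49. Over all probe sets this was the fall of rank 12.

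Notch1 encodes a transmembrane receptor whose intracellular domain is released by cleavage when a Delta-like or Jagged ligand binds, and which T-lineage commitment requires. The brighter of its probe sets (1418634_at) read 7.31 at the lowest, 7.995 at the median and 8.46 at the highest in irradiated arrays, against 8.90, 9.13 and 9.73 in non-irradiated arrays. As with Flt3, replicate 1 was the lowest and replicate 2 the highest irradiated array, and no array of one group reached the other. Its log2 change was -1.27 (SE 0.19), with means of 7.96 ± 0.38 and 9.23 ± 0.33 in irradiated and non-irradiated cells (SD, n = 6 each). The dimmer probe set (1418633_at) read 7.52 at the lowest, 7.87 at the median and 8.25 at the highest in irradiated arrays, against 8.57, 8.95 and 9.42 in non-irradiated arrays. Its log2 change of -1.11 (SE 0.17) was within 1 SE of that of the brighter one, and the deviations of both probe sets from their group means correlated with r = 0.656 over 12 arrays. Replicate 2 was the highest irradiated array here too, but replicate 6 the lowest.

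Ccr9 encodes the receptor of the chemokine Ccl25, which is made in the thymus and small intestine. It was dim: the mean of its probe set in irradiated cells exceeded that of 11.5% of probe sets, and in non-irradiated cells that of 26.0%. The probe set (1421920_a_at) read 3.88 at the lowest, 4.05 at the median and 4.46 at the highest in irradiated arrays, against 4.53, 5.04 and 6.14 in non-irradiated arrays. The SD was 0.24 in irradiated arrays and 0.65 in non-irradiated arrays. The groups were parted by 0.065 log2 units, less than either SD. The log2 change was -1.06 (SE 0.25), or 2.08-fold lower with a 95% interval of 1.42 to 3.05. With the dimmest 40% of probe sets left out, Ccr9 was itself among those removed and had no fit.

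Dntt encodes terminal deoxynucleotidyl transferase, the DNA polymerase that adds bases without a template at the joints of rearranging antigen receptor genes. Its probe sets held the falls of rank 3, 4 and 5 over all probe sets. The brightest (1420166_at) read 7.39 at the lowest, 8.25 at the median and 8.95 at the highest in irradiated arrays, against 10.39, 10.81 and 11.15 in non-irradiated arrays. The group gap of 1.44 log2 units was wider than the range of the non-irradiated arrays but narrower than that of the irradiated arrays. The SD was 0.63 in irradiated and 0.24 in non-irradiated cells, a ratio of 2.58, where the median ratio over all probe sets was 0.936. The log2 changes were -2.60 (SE 0.25) in this probe set, -2.52 (SE 0.22) in 1449757_x_at and -2.67 (SE 0.20) in 1450545_a_at. The suffix x in such names marks probes that may also match other sequences, and the a suffix probes shared by transcripts of 1 gene. The probe set 1449757_x_at read 7.58, 8.11 and 8.96 (lowest, median, highest) in irradiated arrays, against 10.33, 10.74 and 10.98 in non-irradiated arrays. The probe set 1450545_a_at read 7.41, 7.91 and 8.60 in irradiated arrays, against 10.22, 10.56 and 11.13 in non-irradiated arrays. All 3 probe sets thus put Dntt 5.73-fold to 6.37-fold lower. Their deviations from the group means correlated with r between 0.734 and 0.965 over 12 arrays, and the SD ratio was 2.59 in 1449757_x_at but 1.22 in 1450545_a_at.

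Cd52 encodes a small glycoprotein anchored to the lymphocyte surface by a lipid. Its probe set (1460218_at) was bright in both groups and read 9.85 at the lowest, 10.37 at the median and 10.57 at the highest in irradiated arrays, against 10.99, 11.45 and 11.65 in non-irradiated arrays. The spread was alike, with SDs of 0.261 in irradiated and 0.262 in non-irradiated cells. Its log2 change was -1.08 (SE 0.14), the most precise of the 9, or 2.12-fold lower with a 95% interval of 1.71 to 2.62.

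Lsp1 encodes a leukocyte protein that binds filamentous actin. Its probe set (1417756_a_at) read 8.31 at the lowest, 9.005 at the median and 9.09 at the highest in irradiated arrays, against 9.62, 10.15 and 10.69 in non-irradiated arrays. The lowest irradiated value came from replicate 2, and the other 5 lay between 8.97 and 9.09. The log2 change was -1.25 (SE 0.18) with all arrays and -1.13 without irradiated replicate 2. The array that was highest in its group for Flt3, Notch1, Ccr9 and the brightest Dntt probe set was thus the lowest for Lsp1.

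**Figure D2:**
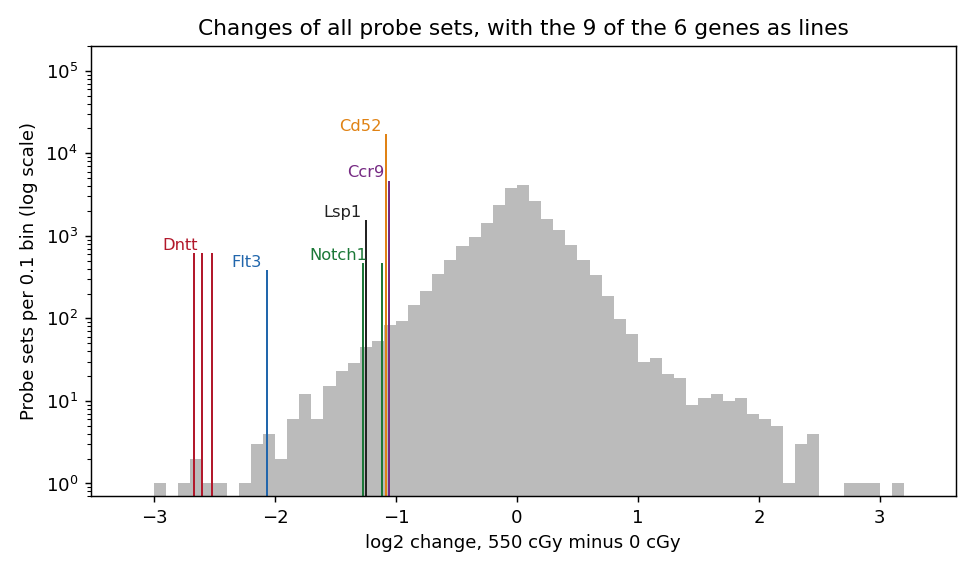
Histogram of the log2 changes (550 cGy minus 0 cGy) of all 22626 probe sets on a log count axis, with vertical lines at the 9 probe sets of the 6 genes; line heights carry no value. The Dntt lines stand near the left end, Flt3 at -2.07 and the others between -1.27 and -1.06.

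The genes differed in how the replicate sets contributed. In irradiated cells the mean of replicates 4 to 6 minus that of replicates 1 to 3, by the brightest probe set, was -0.80 for Dntt, -0.38 for Cd52, -0.31 for Flt3, -0.072 for Ccr9, -0.018 for Notch1 and 0.18 for Lsp1 (log2). In non-irradiated cells the same shift was -0.71 for Flt3, -0.63 for Lsp1, -0.52 for Notch1, -0.43 for Cd52, -0.34 for Ccr9 and -0.24 for Dntt. Dntt, with the largest shift in irradiated cells, thus had the smallest in non-irradiated cells.

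The log2 change between the doses was accordingly the larger in replicates 4 to 6 for Dntt and the larger in replicates 1 to 3 for the other 5 genes. For Dntt it was -2.88 (SE 0.27) in replicates 4 to 6 and -2.32 (SE 0.25) in replicates 1 to 3, with the same order in its other probe sets. For Lsp1 it was -0.84 (SE 0.11) in replicates 4 to 6 and -1.66 (SE 0.24) in replicates 1 to 3. Notch1 had -1.02 (SE 0.095) in replicates 4 to 6 and -1.52 (SE 0.30) in replicates 1 to 3, and Flt3 -1.87 (SE 0.14) in replicates 4 to 6 and -2.27 (SE 0.48) in replicates 1 to 3. These receptors were the less precise in replicates 1 to 3, where irradiated replicates 1 and 2 lay apart. Ccr9 had -0.92 (SE 0.28) in replicates 4 to 6 and -1.19 (SE 0.39) in replicates 1 to 3, and Cd52 had nearly equal changes of -1.06 (SE 0.15) in replicates 4 to 6 and -1.10 (SE 0.11) in replicates 1 to 3.

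The difference between these changes was not what chose the genes, and was tested in limma over all probe sets. With p adjusted by Benjamini-Hochberg and a threshold of 0.05, 0 of the 9 probe sets passed, where 0.133% of all probe sets did. Their adjusted p lay between 0.281 and 0.952. At an unadjusted p under 0.05 only Lsp1 passed, where 11.4% of all probe sets did. Its difference, replicates 4 to 6 minus replicates 1 to 3, was 0.82 (SE 0.27, limma adjusted p = 0.281). The larger Dntt change in replicates 4 to 6 was a difference of -0.56 (SE 0.40) in the brightest probe set (limma adjusted p = 0.63), within the spread between arrays. Which replicate set had the larger change turned with 1 array left out for Flt3, Ccr9 and Cd52. The difference was then -0.11 for Flt3 without irradiated replicate 1 and -0.13 for Ccr9 without non-irradiated replicate 3. For Cd52 it was -0.040 when irradiated replicate 6 was left out, -0.0020 when irradiated replicate 5 was, and -0.047 when non-irradiated replicate 6 was.

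**Figure D3:**
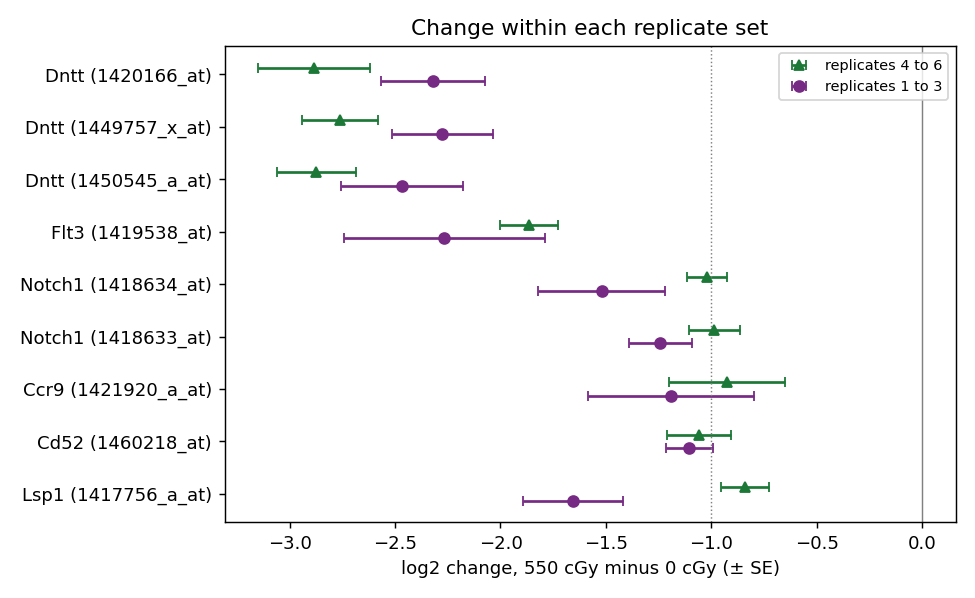
Log2 change (550 cGy minus 0 cGy, ± SE) of each probe set in replicates 4 to 6 (triangles) and in replicates 1 to 3 (circles); the solid line marks 0 and the dotted line a 2-fold fall. All 18 changes lie below 0, and Lsp1 has the widest parting, at -0.84 in replicates 4 to 6 and -1.66 in replicates 1 to 3.

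How the genes varied within a group is likewise separate from the difference that chose them. For each of the 15 pairs of genes, Pearson's r was taken over 12 arrays after subtraction of each dose group's mean, with the brightest probe set for each gene. The arrays share the replicate sets, and r is given as a description with no p. Flt3 and the brighter Notch1 probe set followed each other closely, with r = 0.922 and Spearman's rho = 0.944. This r was 0.943 within the 6 irradiated and 0.924 within the 6 non-irradiated arrays. It was 0.920 with the replicate set means also subtracted. Without irradiated replicates 1 and 2, which lay farthest out in Flt3, r was 0.907. The dimmer Notch1 probe set, with r = 0.656 to the brighter one, was not part of these pairs. The closeness to Flt3 is therefore given for 1 Notch1 probe set only. Dntt and Flt3 had r = 0.633 (rho = 0.650), with 0.651 in irradiated and 0.606 in non-irradiated arrays, and 0.528 without irradiated replicates 2 and 6. With irradiated replicate 2 alone left out it was 0.398 over the other arrays and 0.339 over the other irradiated ones. Dntt and Notch1 had r = 0.447 (rho = 0.524), which was 0.371 without irradiated replicates 2 and 6 and 0.242 with replicate 2 alone left out.

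Lsp1 did not keep one relation to Flt3. Over the 6 irradiated arrays r was -0.836, and over the 6 non-irradiated arrays it was 0.955. The negative value rested on irradiated replicate 2, since r was 0.165 over the other 5 irradiated arrays. In the non-irradiated arrays both genes were lower in replicates 4 to 6 than in replicates 1 to 3. Lsp1 and Notch1 likewise had r = -0.632 in irradiated arrays (0.0963 without replicate 2) and r = 0.927 in non-irradiated arrays. Over all 12 arrays, after subtraction of group means, Flt3 and Lsp1 had r = -0.045, and 0.735 without irradiated replicate 2. Over all 15 pairs the median r was 0.249, with 12 pairs above 0 and a range of -0.127 to 0.922. With the replicate set means subtracted as well, the median was -0.019.

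**Figure D4:**
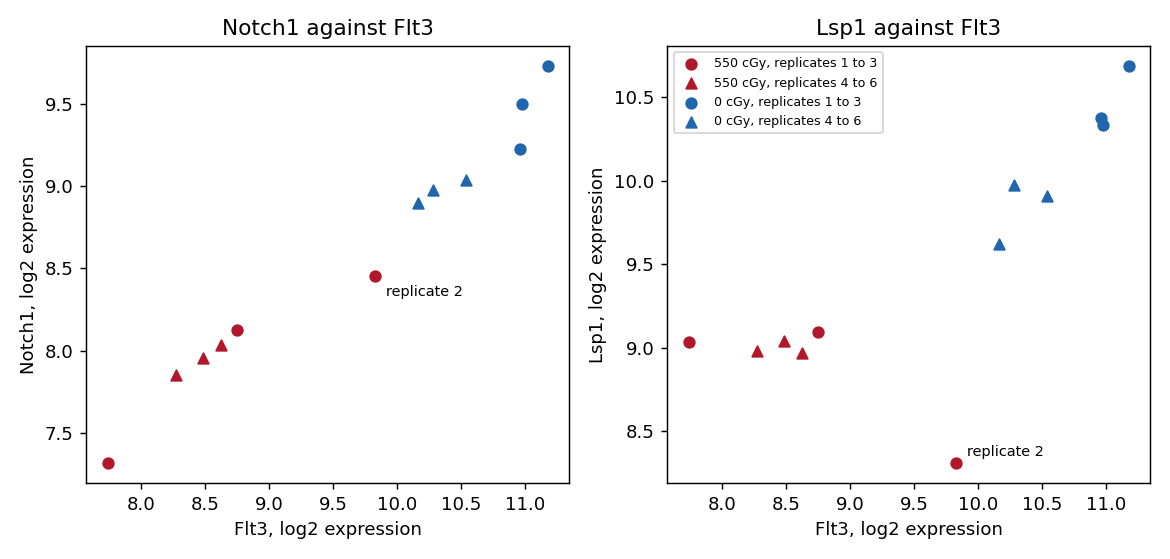
Notch1 (left, the brighter of its probe sets) and Lsp1 (right) against Flt3 in each array, in log2 expression. Red marks 550 cGy and blue 0 cGy, circles replicates 1 to 3 and triangles replicates 4 to 6. Notch1 follows Flt3 in both groups (r = 0.943 in irradiated and 0.924 in non-irradiated arrays), and irradiated replicate 2 has the highest Flt3 (9.83) and the lowest Lsp1 (8.31) of its group.

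Of 319 other singly named genes, Timp2, which encodes an inhibitor of matrix metalloproteinases, followed Flt3 most closely by the same measure (r = 0.970 over 12 arrays, rho = 0.972, and 0.936 without irradiated replicates 1 and 2). Next to Flt3 came Gm4354 (r = 0.844) and Satb1, a chromatin organizer (r = 0.829). Timp2 was also the nearest to Notch1 (r = 0.909), before Alcam, an adhesion molecule (r = 0.883), and Cyp2j9, a cytochrome P450 (r = 0.824). For Dntt the nearest were Acot1, an acyl-CoA thioesterase (r = 0.719), Satb1 (r = 0.716) and another Timp2 probe set (r = 0.676). Lsp1 was followed by Itsn1, an endocytic scaffold (r = 0.909), and by Sox4, a transcription factor (r = 0.841). Cd52 was followed by Retreg1 (r = 0.805) and Btg2 (r = 0.765). With the replicate set means subtracted r was -0.048 for Cd52 and Btg2, against 0.962 for Flt3 and Timp2 and 0.885 for Notch1 and Timp2. For Ccr9 the highest values were lower than for Flt3 or Notch1: Ceacam1 (r = 0.675), Cd33 (r = 0.670) and Abca1 (r = 0.654), the last with rho = 0.301. The other genes here were selected on the same arrays for a change of at least 2-fold.

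The pathways around these genes were covered only where the authors' table named a probe set. That table holds only probe sets that changed between these same arrays, so a named gene was likely to be called, and nothing is read from the counts of calls in any list or marker set. Of 32 lymphoid priming genes 9 were named. Their median log2 change was -1.25, against 0.0078 over all probe sets. Nothing is read from this median either, since a gene was named only if it passed the 2-fold threshold. Of these 9 genes, 6 are those described above. The other 3 are transcriptional regulators, and all 3 were called lower by limma (Benjamini-Hochberg adjustment, threshold 0.05), where 5.47% of all probe sets were. Satb1 fell by 2.14 on the log2 scale (limma adjusted p = 0.000409), and Runx2 and Sox4 fell by 1.18 and 1.12 (limma adjusted p = 0.00138 and 0.00398). In replicates 4 to 6 alone the log2 changes of Satb1, Runx2 and Sox4, by their brightest probe sets, were -2.12, -0.76 and -0.72. In replicates 1 to 3 alone they were -2.15, -1.61 and -1.51. The other 23, among them Il7r, Rag1, Ebf1 and Ikzf1, had no named probe set and were not analysed here.

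Of 27 Notch pathway genes 3 were named, all of them lower. Besides the receptor Notch1 these were the ligand gene Jag2, with means of 6.91 ± 0.55 in irradiated and 8.02 ± 0.37 in non-irradiated cells (SD, n = 6 each; limma adjusted p = 0.0142), and Maml2, a coactivator of the Notch transcription complex, with 7.45 ± 0.42 in irradiated and 8.47 ± 0.69 in non-irradiated cells (SD, n = 6 each; limma adjusted p = 0.0431). Jag2 was not called in either replicate set alone (limma adjusted p = 0.0742 in replicates 4 to 6 and 0.0555 in replicates 1 to 3). Maml2 lost its call in 8 of 12 fits that left out 1 array, with limma adjusted p of up to 0.0909; it kept the call without irradiated replicate 1 or non-irradiated replicate 4, 5 or 6. In replicates 1 to 3 alone Maml2 was not called (limma adjusted p = 0.0792). Of 16 genes of the Flt3 pathway and the receptor kinases of its class, the table named Flt3 and Pdgfrb, a platelet-derived growth factor receptor, which fell by 1.29 and 1.85 on the log2 scale in its probe sets (limma adjusted p = 0.00781 and 0.00680). Of 18 chemokine receptor genes only Ccr9 was named, and of 13 genes of V(D)J recombination and end joining only Dntt.

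Markers of other cells in the marrow moved with the same groups, and their part in the results above was not tested. Of 8 erythroid markers 7 were named and 6 were called higher by their brightest probe set, where 5.87% of all probe sets were, but in replicates 1 to 3 alone Epor and Rhag were not called (limma adjusted p = 0.0995 and 0.0631). The mean level of the 7 ranged from 8.40 to 9.65 in irradiated arrays, against 6.50 to 7.76 in non-irradiated arrays (log2). Of 6 markers of plasmacytoid dendritic cells, which carry Ccr9 and Flt3 as well, Cox6a2 was named besides Ccr9 and fell by 1.09 on the log2 scale (limma adjusted p = 0.00209). Of 9 markers of dendritic cells and macrophages Cd86 fell by 1.38 (limma adjusted p = 0.0103), and Mpeg1 had a log2 change of -1.06 (limma adjusted p = 0.0522). In replicates 1 to 3 alone neither Cox6a2 nor Cd86 was called (limma adjusted p = 0.0835 and 0.212). The log2 change of Mpeg1 was -1.88 in replicates 4 to 6 (limma adjusted p = 0.0151) and -0.23 in replicates 1 to 3 (limma adjusted p = 0.757). Among stem cell markers, Hlf and Procr fell by 1.24 and 1.01 on the log2 scale (limma adjusted p = 0.0114 and 0.0208), and the brightest Slamf1 probe set was higher by 1.68 (limma adjusted p = 0.00271). In replicates 1 to 3 alone that Slamf1 probe set was not called (limma adjusted p = 0.0548). Both named markers of mast cells and basophils, of 5, and both of megakaryocytes, of 5, were called higher. Among these, Fcer1a lost its call without irradiated replicate 1 or 6 or non-irradiated replicate 1 or 3 (limma adjusted p up to 0.056), and Vwf without irradiated replicate 3, 4, 5 or 6 or non-irradiated replicate 2 (limma adjusted p up to 0.0623). Fcer1a had a log2 change of 0.42 in replicates 4 to 6 (limma adjusted p = 0.513) and 1.77 in replicates 1 to 3 (limma adjusted p = 0.015). In replicates 1 to 3 alone Vwf and the brighter Selp probe set were not called (limma adjusted p = 0.139 and 0.115). None of the 6 B cell, 9 T and NK cell, 6 neutrophil, 3 monocyte or 3 eosinophil markers had a named probe set, so their levels beside these genes are not known here.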

How the data were processed

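RNA of sorted KSL cells was measured on 12 arrays, 6 per dose. The authors deposited log2 expression values, 1 per probe set and array; per the submitters' processing notes Partek is listed, its role, background correction and normalization being not given in the sources used here. Symbols come from another table; it holds, as deposited by the authors and per the file headers, symbols, p-values, linear ratios, signed folds and analysis of variance scores of changed probe sets. The log2 ratios recomputed from the values differed by at most 2.36e-05. Of its 454 probe sets 451 were in the value table.

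Probe sets were fitted with limma 3.58.1 in R 4.3.3 (lmFit, eBayes, Benjamini-Hochberg over 22626 probe sets, called under 0.05, no filter), and dose by replicate set as an interaction; both fits were tested on simulated data. The number of arrays limits the precision: the median SE of a log2 change was 0.132. The brightest probe set by mean stands for a gene. Symbols were updated by gene ID through a RefSeq table (GRCm38.p6), matching 422 of 433 singly named probe sets. Named genes were the members, the 3 genes nearest to each by within-group correlation, and named list genes; some of these are not reported here. The members and lists were chosen with earlier results of these data known. Alternatives were quantile normalization, array medians subtracted, the dimmest 40% left out, a trended and robust prior, a replicate block, a replicate set term, each set alone and each array left out; correlations without the 2 farthest arrays or without irradiated replicate 2 were added after the data were seen. Committed progenitors were not analysed here. SciPy 1.17.1 and matplotlib 3.10.9 were used.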

Additional observations from a re-analysis of the deposited data

Results flagged for a closer look

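Lsp1 in irradiated replicate 2 lay far from the other 5 irradiated arrays, at 8.31 against a nearest value of 8.97 (log2 expression), a gap of 0.841 of the group's range, above Dixon's 95% critical value for 6 arrays. It was 1 of 18 groups of 6 arrays examined (9 probe sets, each dose), and chance alone flags about 1 group in 20. Without that array the irradiated mean of Lsp1 was 9.02 ± 0.051 (SD, n = 5) and the log2 change -1.13.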

How the results depend on the processing

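All 9 probe sets were lower in irradiated cells in all 179 values under the alternatives, and the smallest change was -0.84. Fits on fewer arrays could not turn this sign, since the groups did not overlap in any of the 9. The replicate block, the replicate set term, the other prior and the filter leave the change itself as it is. Nothing is read from the 179 values, since the rule used this contrast. Lsp1 alone moved by more than its spread between arrays, to -0.84 with replicates 4 to 6 only and -1.66 with replicates 1 to 3 only; the cause was not tested. Over all probe sets, replicates 4 to 6 alone gave 720 higher and 738 lower calls and replicates 1 to 3 alone 539 and 601, each from fewer arrays. The replicate set term gave 2099 higher and 1833 lower calls, against 1329 higher and 1238 lower in the pooled fit. Leaving out each array gave 740 to 1531 higher and 773 to 1303 lower calls, with the lowest of both without irradiated replicate 1, and 769, 830 and 837 higher calls without irradiated replicate 6, irradiated replicate 5 and non-irradiated replicate 1. With array medians subtracted 62.0% of calls were rises, against 51.8%. The 30 probe sets whose change differed between the sets became 96 with a trended and robust prior and 4 to 129 with 1 array left out, 4 without irradiated replicate 4 or 6 or non-irradiated replicate 4, 7 to 14 without irradiated replicate 1, 2 or 5 or non-irradiated replicate 5 or 6, 58 without non-irradiated replicate 2 and 129 without irradiated replicate 3; the members' adjusted p stayed at 0.19 or above. The median r of the 15 pairs, 0.249, was -0.0189 with replicate set means subtracted, 0.364 as Spearman's rho, 0.439 without the 2 farthest arrays and 0.226 to 0.331 with 1 array left out. Same-numbered arrays of both doses deviated together with r of 0.0106 to 0.286, and 1 of 6 irradiated arrays correlated best with its own number, so the numbers were not taken as pairs. With the number as a replicate block, 2801 probe sets were called against 2567. Such a block can alter only the SE, since each number has 1 array per dose. The Dntt change of -2.60 then had an SE of 0.21.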
